A study of Rattus norvegicus with 12 samples.

Results

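The genes of the plasminogen system followed here were Plat, Plau, Plaur, Serpine2, Serpinb2 and Plg, chosen by name as the activators of plasminogen, the receptor of one activator, inhibitors of the activators, and plasminogen itself. All 6 were among the 14506 genes with a probe set of 1 gene symbol. Each of the 6 had exactly 1 such probe set, so no choice among probe sets was made for them. The list was drawn up by name with the responses of Plat and Plau in these arrays already in view, so p-values given for the 6 do not stand as independent support.

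The RNA came from smooth muscle cells of Sprague-Dawley rat aorta, which the labels call differentiated and which had spent 48 h without serum. Angiotensin II (Ang II), the vessel-constricting peptide hormone, was given at 100 nM for 6, 12 or 24 h to 3 of the 4 groups, and the other group was untreated. Each group had 3 arrays (Affymetrix Rat Gene 1.0 ST). Times follow the sample titles, although the treatment protocol lists 1, 3 or 24 h. The replicates are called biological, with no animal or culture named, and the spread behind each p-value is that among arrays, which may be technical. Untreated cells cultured for the same extra time were not analysed here, so Ang II and time in culture cannot be told apart.

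Plasminogen is a circulating zymogen made mainly in the liver. Tissue-type activator (tPA, gene Plat) and urokinase (uPA, gene Plau) cleave it to plasmin, which dissolves fibrin, degrades matrix proteins and activates latent proteases and growth factors. Urokinase works at the cell surface while bound to its receptor uPAR (gene Plaur), and serpins such as protease nexin-1 (gene Serpine2) and plasminogen activator inhibitor 2 (gene Serpinb2) block the activators by forming complexes with them. In the vessel wall the system is known for its part in smooth muscle cell migration and remodelling of the matrix.

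The 5 activator, receptor and inhibitor genes all changed over the 4 groups. Plau and Serpinb2 were high at 6 and 12 h, and neither passed against untreated cells at 24 h. Plat rose most and was still high at 24 h, Plaur had a peak at 6 h, and Serpine2 was highest at 24 h. In the limma F test over the 4 groups the adjusted p was 9.05e-11 for Plat, 1.53e-08 for Plau, 5.84e-09 for Plaur, 0.000125 for Serpine2 and 8.34e-07 for Serpinb2, and 51.5% of all genes passed this test. Plg had an adjusted p of 0.14. Values are the deposited log2 expression values, in which 1 unit is a 2-fold difference. Levels of different genes are not compared, because probe sets differ in brightness.

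**Figure D1:**
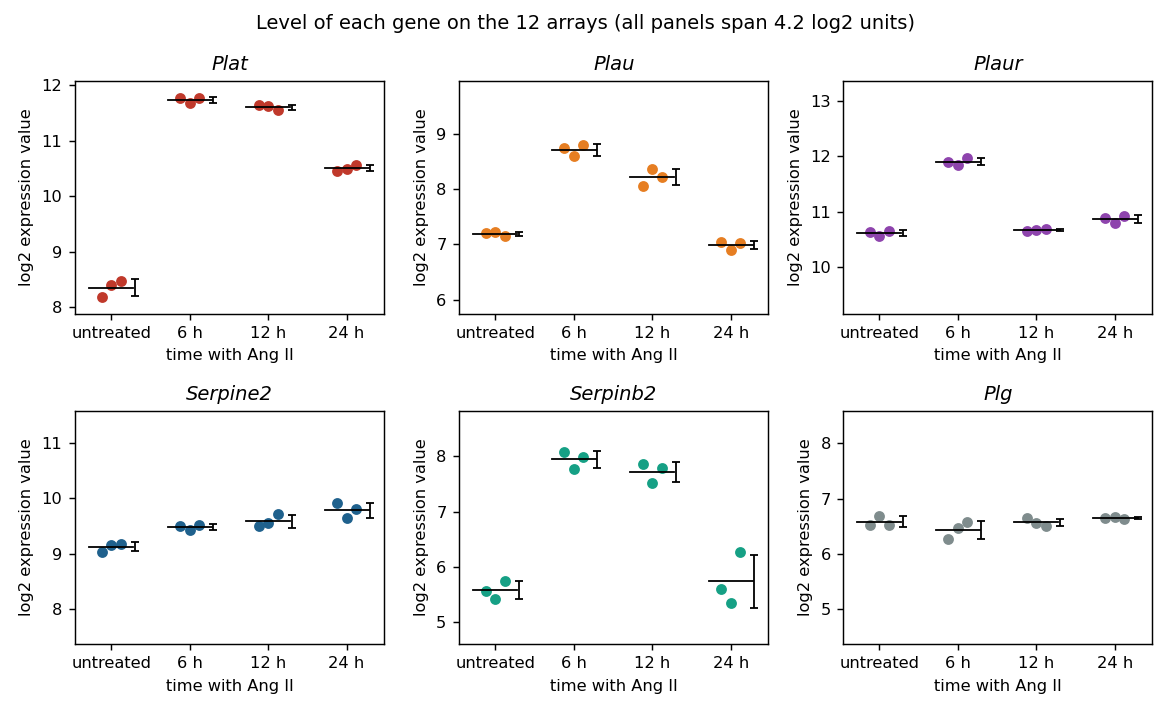
Log2 expression value of each gene (vertical axis) on the 12 arrays, in untreated cells and after 6, 12 and 24 h of Ang II (horizontal axis). Points are arrays, horizontal lines are group means and bars are the SD of 3 arrays. Plat stays above its untreated level at every time, the Plaur arrays are high at 6 h, and Serpinb2 has 1 array at 24 h, at 6.28, apart from the other two.

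Plat encodes tissue-type plasminogen activator, the activator that binds fibrin. Its log2 values were 8.18, 8.40 and 8.46 in untreated cells, 11.78, 11.68 and 11.76 at 6 h, 11.64, 11.62 and 11.56 at 12 h, and 10.46, 10.48 and 10.57 at 24 h. No Ang II array overlapped the untreated ones, and the 24 h arrays lay between the untreated and the earlier Ang II arrays. Against untreated cells, Plat was 10.5-fold higher at 6 h (log2 change 3.39, limma adjusted p = 3.73e-11, SE 0.07). Here and below, ± gives the SE of a difference between groups of 3 arrays. At 12 h it was 9.58-fold higher (3.26 ± 0.07, adjusted p = 5.92e-11), and at 24 h it was still 4.46-fold higher (2.16 ± 0.07, adjusted p = 2.5e-09). The level at 12 h was lower than at 6 h in all arrays, by a difference that missed the threshold (log2 difference -0.13, 95% interval -0.28 to 0.02, limma adjusted p = 0.194). From 12 to 24 h Plat fell by 1.10 on the log2 scale (limma adjusted p = 5.32e-07).

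Plau encodes urokinase, the activator that acts at the cell surface, and gave log2 values of 7.20, 7.23 and 7.15 in untreated cells, 8.74, 8.60 and 8.81 at 6 h, 8.07, 8.37 and 8.22 at 12 h, and 7.04, 6.90 and 7.03 at 24 h. The 4 groups did not overlap, with the order 6 h, 12 h, untreated and 24 h from highest to lowest. Against untreated cells Plau was 2.87-fold higher at 6 h (log2 change 1.52 ± 0.08, limma adjusted p = 2.71e-08) and 2.03-fold higher at 12 h (1.02 ± 0.08, adjusted p = 1.37e-06). At 24 h the difference from untreated cells was -0.20 ± 0.08 and missed the threshold (95% interval -0.37 to -0.03, limma adjusted p = 0.0714). That result lay near the threshold: it passed without Ang II 12 h replicate 1 (limma adjusted p = 0.0408) or replicate 2 (0.0436), in a fit of those groups alone (0.0325), and after a further quantile normalization (log2 change -0.26, adjusted p = 0.014).

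Plaur encodes the urokinase receptor, a protein held at the outer cell surface by a lipid anchor. Plaur had log2 values of 10.63, 10.55 and 10.66 in untreated cells, 11.90, 11.85 and 11.97 at 6 h, 10.66, 10.67 and 10.69 at 12 h, and 10.89, 10.79 and 10.92 at 24 h. The 6 h arrays stood above all others, and the 12 h arrays lay just above the untreated ones. Against untreated cells Plaur was 2.45-fold higher at 6 h (log2 change 1.29 ± 0.05, limma adjusted p = 3.32e-09). At 12 h the change was 0.06 ± 0.05 (95% interval -0.05 to 0.17, limma adjusted p = 0.444), a range that holds no change of the size seen at 6 h. At 24 h Plaur was 1.19-fold higher than in untreated cells (0.25 ± 0.05, limma adjusted p = 0.00224). The difference of 0.19 between 24 and 12 h passed (limma adjusted p = 0.0131), but missed the threshold without Ang II 24 h replicate 3 (0.17, adjusted p = 0.0528).

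Serpine2 encodes protease nexin-1, a secreted serpin that inhibits thrombin, urokinase, tissue-type activator and plasmin. Serpine2 had log2 values of 9.04, 9.17 and 9.18 in untreated cells, 9.50, 9.42 and 9.52 at 6 h, 9.49, 9.55 and 9.72 at 12 h, and 9.91, 9.64 and 9.82 at 24 h. All Ang II arrays were above the untreated ones, and neighbouring Ang II times overlapped. Against untreated cells Serpine2 was 1.27-fold higher at 6 h (log2 change 0.35 ± 0.08, limma adjusted p = 0.00329), 1.37-fold higher at 12 h (0.46 ± 0.08, adjusted p = 0.000777) and 1.58-fold higher at 24 h (0.66 ± 0.08, adjusted p = 4.7e-05). The level at 24 h exceeded that at 6 h by 0.31 (limma adjusted p = 0.00711). Neighbouring times did not pass: 12 h minus 6 h was 0.11 (95% interval -0.06 to 0.28, limma adjusted p = 0.367) and 24 h minus 12 h was 0.20 (0.03 to 0.37, adjusted p = 0.0751). The latest step passed without Ang II 12 h replicate 3 (0.27, limma adjusted p = 0.0327) or without Ang II 24 h replicate 2 (0.27, adjusted p = 0.0223).

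Serpinb2 encodes plasminogen activator inhibitor 2, a serpin that inhibits urokinase and stays largely inside cells. Its log2 values were 5.57, 5.42 and 5.74 in untreated cells, 8.07, 7.78 and 8.00 at 6 h, 7.85, 7.52 and 7.78 at 12 h, and 5.60, 5.36 and 6.28 at 24 h. The 6 and 12 h arrays overlapped each other and stood above all others, while the 24 h arrays fell on both sides of the untreated ones. Against untreated cells Serpinb2 was 5.17-fold higher at 6 h (log2 change 2.37 ± 0.19, limma adjusted p = 1.39e-06) and 4.41-fold higher at 12 h (2.14 ± 0.19, adjusted p = 5.93e-06). At 24 h the change was 0.17 ± 0.19 (95% interval -0.26 to 0.59, limma adjusted p = 0.542), and it was -0.10 without Ang II 24 h replicate 3 (adjusted p = 0.603). Whether the untreated signal of Serpinb2 stands above background was not tested, and if it does not, these folds are lower bounds. From 12 to 24 h Serpinb2 fell by 1.97 on the log2 scale (limma adjusted p = 1.85e-05).

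Plg encodes plasminogen and gave log2 values of 6.52, 6.69 and 6.53 in untreated cells, 6.27, 6.47 and 6.58 at 6 h, 6.65, 6.56 and 6.51 at 12 h, and 6.65, 6.67 and 6.64 at 24 h, so that each Ang II group overlapped the untreated one. The log2 change against untreated cells was -0.14 ± 0.08 at 6 h (95% interval -0.31 to 0.02), -0.01 ± 0.08 at 12 h (-0.18 to 0.15) and 0.07 ± 0.08 at 24 h (-0.10 to 0.24; limma adjusted p = 0.181, 0.934 and 0.508). The 24 h arrays were above the 6 h arrays by 0.22 (limma adjusted p = 0.0415), a call that was lost when any of 8 of the 12 arrays was left out (untreated replicates 1 and 3, Ang II 6 h replicates 1 and 2, Ang II 12 h replicate 2 and all 3 Ang II 24 h replicates, adjusted p = 0.05 to 0.167). Without Ang II 6 h replicate 1 the difference was 0.13. Without Ang II 6 h replicate 3 the change at 6 h was -0.21 and passed (limma adjusted p = 0.0489). The deposited values carry no detection call, so whether the Plg signal stands above background was not tested.

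Against untreated cells 5 of the 6 genes rose at 6 h and 0 fell (limma; 0 also at an unadjusted p under 0.05), while 18.6% of all genes rose and 17.2% fell. At 12 h 4 rose and 0 fell (unadjusted 0), beside 13.3% of all genes in each direction. At 24 h 3 rose and 0 fell (unadjusted 1, Plau), beside 15.3% and 14.7% of all genes. The median log2 change of the 6 genes was 1.41 at 6 h, 0.74 at 12 h and 0.21 at 24 h, beside 0.011, 0.005 and 0.047 for all genes. The counts are a description. Between 6 and 12 h 2 of the 6 fell (Plau and Plaur) and 0 rose (unadjusted 0), while 13.9% of all genes fell and 13.1% rose. Between 12 and 24 h 3 fell (Plat, Plau and Serpinb2) and 1 rose (Plaur), beside 13.5% and 14.0% of all genes. At 24 h, 4 of the 6 were lower than at 6 h (19.8% of all genes) and 2 were higher (Serpine2 and Plg; 19.4%). The split of all calls depended on scaling: 2222 genes were higher and 2136 lower at 24 h than in untreated cells, and 3559 and 1713 after median centring. For 24 h against 12 h these numbers were 2028 higher and 1955 lower, and 2957 and 1725 after median centring. The 3 comparisons with untreated cells share the same untreated arrays.

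**Figure D2:**
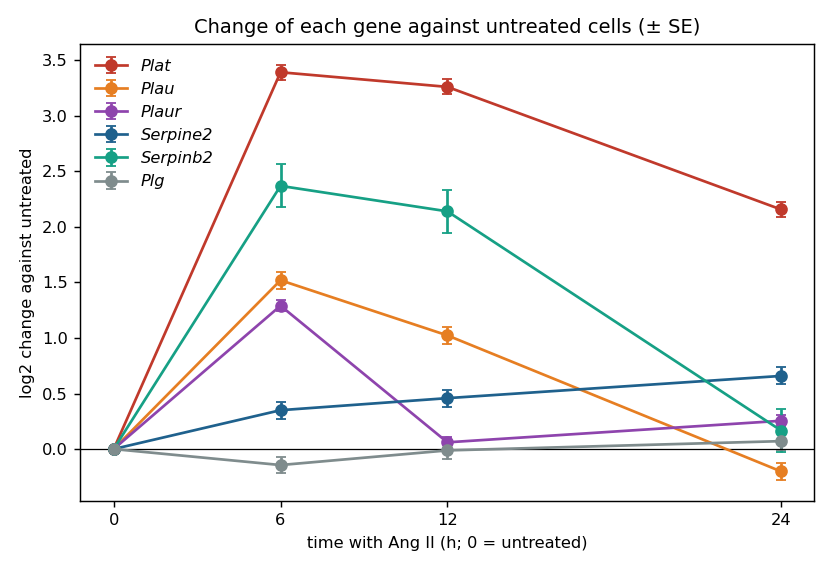
Log2 change of each gene against untreated cells (vertical axis) over the time with Ang II in hours (horizontal axis, 0 being untreated). Points are limma estimates and bars their SE, with 3 arrays per group. Plat and Serpinb2 reach 3.39 and 2.37 at 6 h, Plaur is back to 0.06 at 12 h, and Serpine2 goes up to 0.66 at 24 h.

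The 2 activators were also set against the inhibitor gene Serpine2 on each array, as the log2 value of the activator minus that of Serpine2. Only the change of such a difference between groups has a meaning, since the probe sets differ in brightness. The Plat minus Serpine2 difference was higher than in untreated cells by 3.04 at 6 h and 2.80 at 12 h. At 24 h the ratio of Plat to Serpine2 was 2.83-fold higher, and the smallest log2 difference between an Ang II and an untreated array was 1.28. The Plau minus Serpine2 difference was higher by 1.17 at 6 h and by 0.56 at 12 h, and changed by -0.86 at 24 h, where all Ang II arrays lay below all untreated ones. Relative to Serpine2, Plat was thus higher on every Ang II array, and Plau was higher at 6 and 12 h and lower at 24 h. No such difference was taken against Serpinb2, the other inhibitor gene of the 6. Serpinb2 itself rose more than Plau at 6 h (2.37 against 1.52) and at 12 h (2.14 against 1.02). Plat rose more than Serpinb2 at both times (3.39 and 3.26). The Plat minus Plau difference was higher by 1.87 at 6 h, 2.24 at 12 h and 2.36 at 24 h. With 3 arrays against 3, the two-sided exact permutation test gave p = 0.1 for each of these 9 comparisons, the smallest value that it can give, and 0.1 after Benjamini-Hochberg adjustment over the 9.

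The sequence upstream of the transcription start was read for 5 of the 6 genes from RefSeq (rat assembly GRCr8). The windows of the 4 of these genes that changed are shown. Each is the 250 bases before the start, 5′ to 3′ on the strand of the gene, in lower case, with matches to 4 motifs on either strand in capitals. The motifs were TGACTCA (bound by AP-1 factors), TGACG (the core of cyclic AMP response elements), GGGCGG (the GC box bound by Sp1) and TATAAA (the TATA box).
Plau, chr15:3511988-3512237, reverse strand: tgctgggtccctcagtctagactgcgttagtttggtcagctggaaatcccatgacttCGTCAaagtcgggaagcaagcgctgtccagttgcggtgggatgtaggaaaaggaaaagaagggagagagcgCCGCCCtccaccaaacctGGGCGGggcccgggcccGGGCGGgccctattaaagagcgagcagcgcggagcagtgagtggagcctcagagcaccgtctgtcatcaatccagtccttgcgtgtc
Plaur, chr1:89181113-89181362, forward strand: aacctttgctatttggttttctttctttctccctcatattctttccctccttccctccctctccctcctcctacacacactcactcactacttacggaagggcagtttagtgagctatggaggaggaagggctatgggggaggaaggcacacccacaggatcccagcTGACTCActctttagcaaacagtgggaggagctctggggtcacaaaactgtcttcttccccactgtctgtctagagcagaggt
Serpine2, chr9:88637203-88637452, reverse strand: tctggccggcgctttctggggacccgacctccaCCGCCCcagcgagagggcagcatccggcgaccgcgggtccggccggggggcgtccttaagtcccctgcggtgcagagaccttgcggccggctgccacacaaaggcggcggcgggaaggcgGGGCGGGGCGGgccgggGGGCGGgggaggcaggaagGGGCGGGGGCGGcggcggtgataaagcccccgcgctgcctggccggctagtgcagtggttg
Serpinb2, chr13:24055771-24056020, forward strand: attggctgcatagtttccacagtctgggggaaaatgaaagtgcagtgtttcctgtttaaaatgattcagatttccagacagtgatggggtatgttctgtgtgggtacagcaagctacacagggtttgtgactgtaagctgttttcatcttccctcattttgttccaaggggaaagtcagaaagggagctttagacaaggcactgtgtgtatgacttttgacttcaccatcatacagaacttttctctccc

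The Plaur window held 1 TGACTCA, 83 to 77 bases before the start, a sequence found on either strand in 4.05% of 33465 such rat windows. The Plau window held 1 TGACG on the other strand, 193 to 189 bases before the start (18.2% of windows hold it), and 3 GGGCGG (30.5% hold 1 or more). Serpine2 had 6 GGGCGG, of which the one at 97 to 92 and the one at 92 to 87 bases before the start share a base. None of the 4 motifs was found in the Serpinb2 or the Plg window. The whole Serpinb2 window and the end of the Serpine2 window lie inside the annotated span of the gene. TATAAA, which 12.9% of windows hold, was found in none of the 5. A match describes these letters only, and binding was not measured. No window was read for Plat.

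The genes with the most similar course were ranked by the root mean square difference of their 3 log2 changes against untreated cells, over the 4 groups of 12 arrays. Serpine2 had the closest match, Ccn3, which encodes a matricellular protein, at 0.01 log2 units, with changes of 0.36, 0.47 and 0.64 at 6, 12 and 24 h. Next for Serpine2 came Prss23 and Bag2, both at 0.05. All 3 distances lie below the SE of each Serpine2 change (0.08), so the order of these 3 genes is not resolved. Plau was nearest to Akap12, which encodes a scaffold of protein kinase A (0.14), then to Ttc39c (0.17) and F2rl1 (0.18), the gene of protease-activated receptor 2. F2rl1 changed by 1.39, 0.80 and -0.03 at 6, 12 and 24 h.

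Plaur was nearest to Foxs1 (0.16), to Sphk1, which encodes a sphingosine kinase (0.17), and to the growth factor gene Pdgfb (0.18), which changed by 1.01 at 6 h and by 0.05 at 12 h. Serpinb2 was nearest to Slco2a1, which encodes a prostaglandin transporter (0.18), to Ramp3 (0.27) and to Cxcl16 (0.29). For Plat the nearest genes were Ptprn (0.65), Acan (0.73) and Fgl2 (0.74), all farther off than the nearest genes of the other 4. These distances are not scaled to the size of the changes. Plat ranked 3, 1 and 2 from the top of all genes at 6, 12 and 24 h, so few genes could lie near it. Its larger distances therefore do not show a time course of unusual shape. Acan, the aggrecan gene, changed by 2.38, 2.50 and 2.19 at 6, 12 and 24 h, where Plat changed by 3.39, 3.26 and 2.16.

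**Figure D3:**
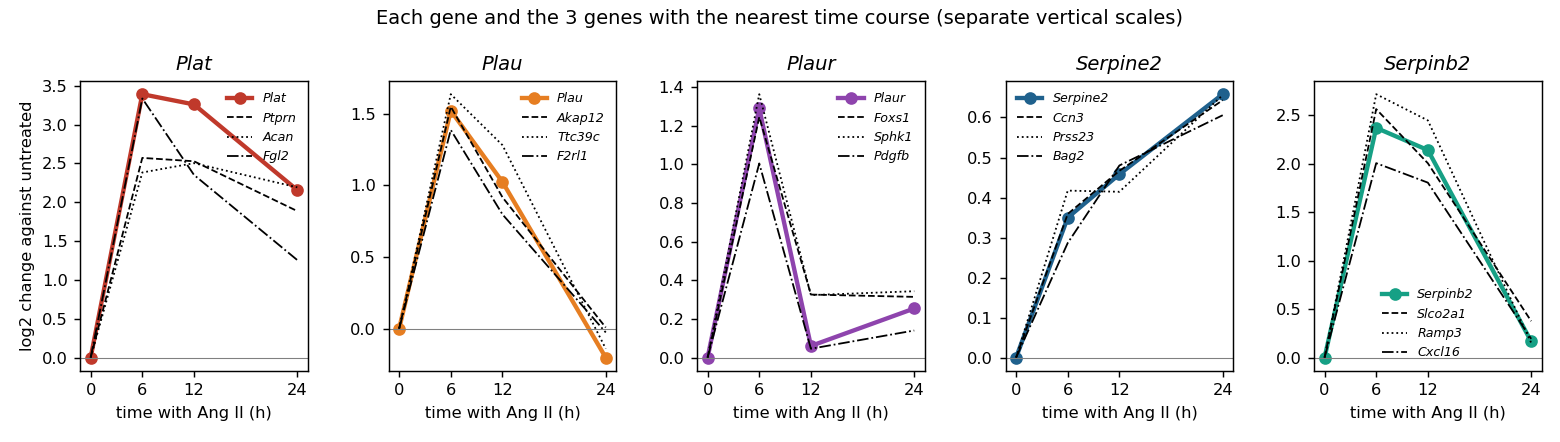
Log2 change against untreated cells (vertical axes, of differing scale) over the time with Ang II in hours (horizontal axes) for 5 genes, drawn as thick coloured lines, and for the 3 genes with the nearest time course, drawn as thin black lines. The Serpine2 lines nearly coincide, and the nearest genes to Plat, which had far larger changes, differ from it by 0.65 to 0.74 log2 units. The distances are not scaled to the size of the changes.

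Of 48 other genes of the plasminogen system, 44 were measured. At 6 h 10 of the 44 rose and 11 fell, at 12 h 11 rose and 9 fell, and at 24 h 12 rose and 11 fell (limma, adjusted p under 0.05), beside 18.6%, 13.3% and 15.3% of all genes that rose and 17.2%, 13.3% and 14.7% that fell. Their median log2 change was -0.012, -0.0034 and 0.09 at the 3 times, beside 0.011, 0.005 and 0.047 for all genes. These genes went both ways. The same shares of all genes stand beside the counts of each list given below.

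Among inhibitors of plasmin or of fibrin lysis, 2 of 5 rose and 1 fell at 6 h, and 1 rose and 1 fell at 12 h and again at 24 h. Tfpi2, which encodes a matrix-bound Kunitz-type inhibitor of plasmin, had log2 values of 6.57, 6.26 and 6.32 in untreated cells, 9.24, 9.10 and 9.30 at 6 h, 7.94, 8.22 and 7.90 at 12 h, and 6.68, 7.13 and 6.83 at 24 h. The groups did not overlap, and Tfpi2 was 7.10-fold higher at 6 h than in untreated cells (2.83 ± 0.12, limma adjusted p = 7.43e-09), 3.11-fold at 12 h and 1.41-fold at 24 h (0.50 ± 0.12, adjusted p = 0.00931). Serping1, which encodes the C1 inhibitor, was 1.32-fold lower at 24 h (-0.40 ± 0.06, limma adjusted p = 0.000227). A2m, which encodes a protease scavenger, was 1.15-fold higher at 6 h (0.21 ± 0.06, limma adjusted p = 0.0265), a call lost without untreated replicate 1 (0.17) or 2 (0.20) or Ang II 6 h replicate 2 (0.13; adjusted p up to 0.1). Of the other inhibitors of the activators, 2 of 3 were measured. Serpina5, the gene of the protein C inhibitor, was higher at 24 h (0.31 ± 0.11, limma adjusted p = 0.0484), and the call was lost when any array but Ang II 6 h replicates 1 and 2 was left out (0.21 to 0.37, adjusted p = 0.0505 to 0.18). The other proteases that activate plasminogen or pro-urokinase, F12, F11, Klkb1 and Hpn, had 0 of 4 calls at each time (limma, lowest adjusted p = 0.0703 for Klkb1 at 24 h), and at an unadjusted p under 0.05 there were 0 at 6 and 12 h and 1 at 24 h. It was not tested whether the signals of these 4 proteases, or the untreated signals of Tfpi2, A2m and Serpina5, stand above background. If that of Tfpi2 does not, its folds are lower bounds.

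Among receptors and binding proteins at the cell surface, 5 of 14 rose and 4 fell at 6 h, 5 rose and 2 fell at 12 h, and 4 rose and 4 fell at 24 h. S100a10, which encodes the p11 protein that binds plasminogen in a complex with annexin A2, went both ways. Its log2 values were 12.51, 12.51 and 12.60 in untreated cells, 13.12, 13.14 and 13.16 at 6 h, 13.02, 12.95 and 12.98 at 12 h, and 11.88, 11.94 and 11.92 at 24 h. The groups did not overlap: S100a10 was 1.51-fold higher at 6 h than in untreated cells (0.60 ± 0.04, limma adjusted p = 3.93e-07) and 1.55-fold lower at 24 h (-0.63 ± 0.04, adjusted p = 5.46e-07). Anxa2, the annexin A2 gene, named after its values were seen, changed by 0.18 ± 0.04 at 6 h, 0.27 ± 0.04 at 12 h and 0.00 ± 0.04 at 24 h (limma adjusted p = 0.00159, 0.000178 and 0.978).

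Plgrkt, which encodes a plasminogen receptor of the cell membrane, had log2 values of 9.64, 9.44 and 9.63 at 24 h, against 8.84, 8.90 and 8.84 in untreated cells, and was 1.64-fold higher (0.71 ± 0.07, limma adjusted p = 1.25e-05). Its change at 6 h was -0.11 ± 0.07 (limma adjusted p = 0.29). Mrc2, which encodes a collagen-binding endocytic receptor that associates with uPAR, was 1.47-fold lower at 24 h (-0.56 ± 0.05, limma adjusted p = 4.01e-06). Itgb3, an integrin subunit gene, was 1.37-fold higher at 6 h (0.46 ± 0.08, limma adjusted p = 0.000446) and had a change of 0.03 at 24 h (adjusted p = 0.778).

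Among substrates and growth factors that plasmin or the activators process, 3 of 19 rose and 6 fell at 6 h, 5 rose and 6 fell at 12 h, and 6 rose and 6 fell at 24 h. Pdgfd and Pdgfc encode latent platelet-derived growth factors that urokinase and tissue-type activator can cleave. Pdgfd had log2 values of 10.27, 10.39 and 10.26 in untreated cells, 9.15, 9.02 and 9.25 at 6 h, 8.25, 8.48 and 8.35 at 12 h, and 9.94, 9.77 and 9.82 at 24 h. It was 3.86-fold lower at 12 h than in untreated cells (-1.95 ± 0.08, limma adjusted p = 7.65e-09), with the 24 h arrays closer to the untreated ones. Pdgfc was 1.95-fold lower at 6 h (-0.96 ± 0.07, limma adjusted p = 7.44e-07). Hgf, which encodes hepatocyte growth factor, made as an inactive precursor, was 1.95-fold higher at 12 h (0.96 ± 0.07, limma adjusted p = 1.26e-06), with a change of 0.07 at 6 h (adjusted p = 0.512). Igfbp5, which encodes a binding protein of insulin-like growth factors, was 1.90-fold higher at 24 h (0.92 ± 0.12, limma adjusted p = 0.000109).

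**Figure D4:**
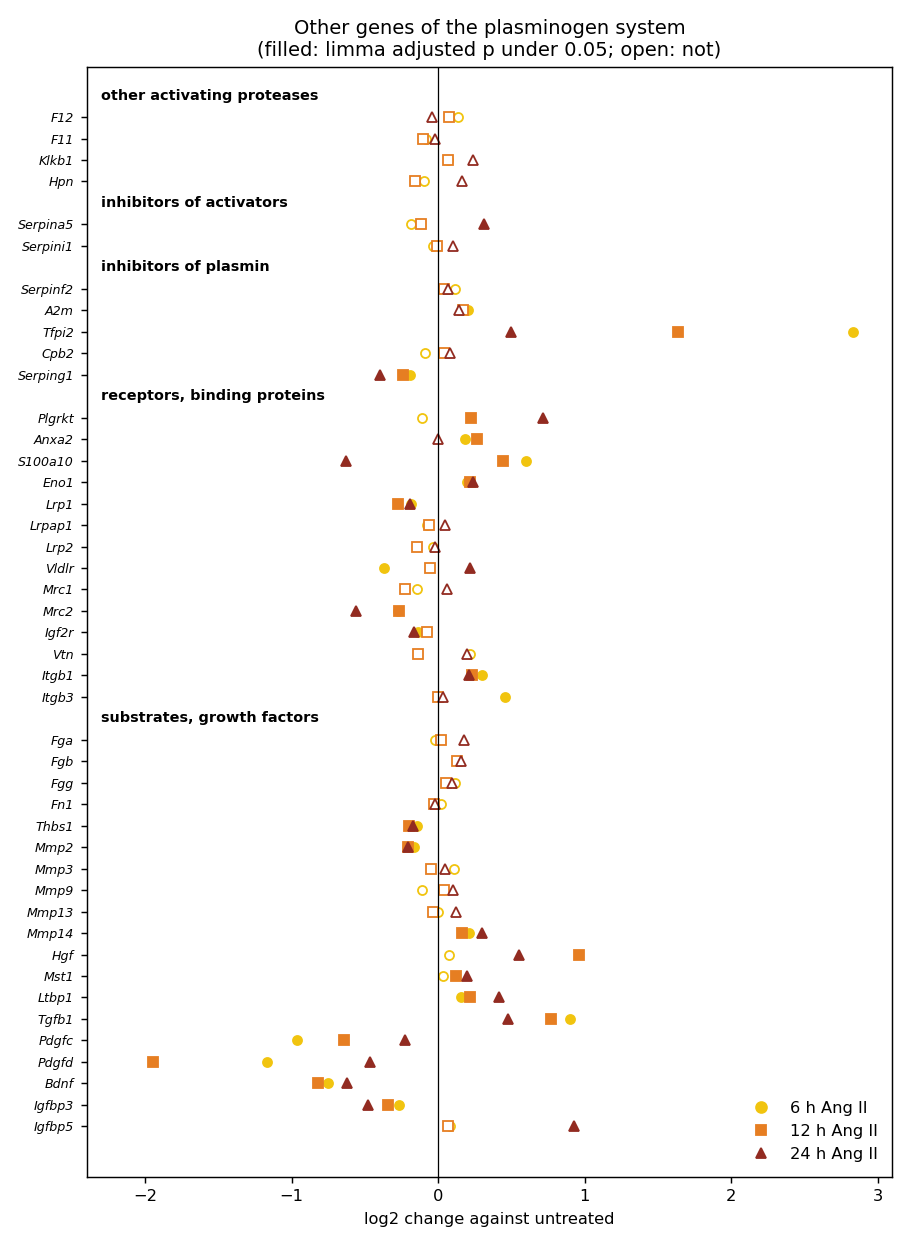
Log2 change against untreated cells (horizontal axis) of the 44 other measured genes of the plasminogen system, 1 per line and grouped by role, after 6, 12 and 24 h of Ang II (symbols). Filled symbols passed limma at an adjusted p under 0.05. Tfpi2 at 2.83 and Pdgfd at -1.95 lie farthest out.

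Smooth muscle markers had mean log2 values in untreated cells from 9.3 for Des to 14.4 for Acta2, with Myh11 at 12.9. Their summed log2 level over 11 of 12 listed genes was 135.6 to 135.9 at 6 h, 136.7 to 137.0 at 12 h and 139.4 to 139.5 at 24 h, against 135.0 to 135.3 in untreated cells. The genes did not all move one way: 4 of 11 rose and 4 fell at 6 h, 5 rose and 1 fell at 12 h, and 10 rose and 0 fell at 24 h (limma; 0 also unadjusted), where 18.6%, 13.3% and 15.3% of all genes rose and 17.2%, 13.3% and 14.7% fell. These shares of all genes also stand beside the other marker counts. Myh11, the smooth muscle myosin gene, changed by -0.24 at 6 h and by 0.44 at 24 h, and the desmin gene Des by 0.48 at 6 h. For endothelial cells, a known source of tissue-type activator, 1 of 11 measured markers rose and 2 fell at 6 h, when Plat was 10.5-fold higher, with a summed level of 72.4 to 73.8 against 73.6 to 73.8 in untreated cells. The endothelial gene Pecam1 averaged 6.26 at 6 h and 6.28 in untreated cells, and Cdh5 averaged 6.43 and 6.32. It was not tested whether Pecam1, Cdh5 and the other dim endothelial markers stand above background. The endothelial markers that passed at 6 h were Tek (-0.66, limma adjusted p = 7.97e-05), Erg (-0.34, adjusted p = 0.00227) and Egfl7 (0.24, adjusted p = 0.0114), and at 24 h Tek changed by -0.91 and Erg by 0.68. Endothelial sums were 73.0 to 74.1 at 12 h and 74.4 to 74.8 at 24 h, when 2 and 3 markers rose and 2 and 1 fell.

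Of 10 fibroblast markers, 0 rose at any time (limma; 0 also unadjusted) and 6, 6 and 5 fell at 6, 12 and 24 h. Their sums were 84.4 to 84.6, 83.9 to 84.5 and 83.0 to 83.3, against 87.7 to 88.4 in untreated cells. The means of these 10 in untreated cells ran from 4.2 for Ly6c to 11.9 for Col14a1, with Lum at 11.8, so some fibroblast markers were bright too. Of 11 measured leukocyte markers, among them macrophage genes, 0 passed at 6 or 12 h (limma; 0 also unadjusted), and sums were 64.9 to 65.7 at 6 h, when Serpinb2 was 5.17-fold higher, against 65.1 to 65.9 in untreated cells. At 24 h 1 leukocyte marker fell, Cd14 (-1.01, limma adjusted p = 1.39e-06). Cd14 was the brightest of the 11 in untreated cells (8.22), and Cd68 came next at 6.73. Whether the dimmer leukocyte markers, or the hepatocyte markers, stand above background was not tested. Of 8 hepatocyte markers 0 passed at 6 or 12 h (limma; 0 also unadjusted) and 2 rose at 24 h, with sums of 48.8 to 49.5 against 47.9 to 48.2 in untreated cells. The part of these shifts in the results was not tested, and in RNA from whole cultures fewer cells of a type and less RNA per cell cannot be told apart.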

How the data were processed

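RNA of 12 samples was measured on 1 array each. The authors deposited log2 values for each probe set. RMA and Partek are named in the submitters' processing notes, with versions, summary level and filters not given in the sources used here. Array medians were 7.22 to 7.32. For arrays no read depth exists, and their number limits the precision (median SE of a log2 difference 0.0667).

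Of 29214 probe sets, 15310 had 1 gene symbol, giving 14506 genes, each read from its probe set of highest mean. Symbols came from the platform annotation, updated through RefSeq (GRCr8). No dim genes were removed. limma 3.58.1 (R 4.3.3) fitted 4 group means to all arrays (8 residual and 3.37 prior degrees of freedom), with Benjamini-Hochberg adjustment over all genes at 0.05. Ratios used SciPy 1.17.1. Tests were two-sided except the F test. On simulated data for Ang II 24 h against control (14506 genes), 46% of genes changed 1.25-fold, 92% changed 1.5-fold and 100% changed 2-fold were recovered. Of the genes left unchanged, 9 were called. Far fewer genes were changed in the simulation than were called in the data, and only in the 24 h group. These rates therefore do not give the sensitivity of the real comparisons.

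The members, the lists of the plasminogen system, the markers and the motifs were chosen with earlier results of these data known, among them the large rise of Plat. Named besides the members were up to 4 passing genes per list with the largest change, and the 3 genes of nearest course for each member that passed the F test. The alternatives were the replicate number as a block, each array left out, the groups compared alone, a filter at the median level, quantile normalization, median centring, the mean of probe sets, all probe sets, a trended robust variance and array weights.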

Additional observations from a re-analysis of the deposited data

Results flagged for a closer look

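The response of the genes differed between times, by limma's test of the difference between Ang II groups (adjusted p under 0.05). From 6 to 12 h the log2 difference, later minus earlier, was -0.50 for Plau and -1.23 for Plaur. From 12 to 24 h it was -1.10 for Plat, -1.22 for Plau, -1.97 for Serpinb2 and 0.19 for Plaur. From 6 to 24 h it was -1.24 for Plat, -1.72 for Plau, -1.04 for Plaur, -2.20 for Serpinb2, 0.31 for Serpine2 and 0.22 for Plg. The Plg and the smaller Plaur difference were lost under some of the alternatives.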

How the results depend on the processing

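All calls against untreated cells for Plat, Plau, Plaur, Serpine2 and Serpinb2 that passed kept their direction and their side of the threshold under the alternatives run and with any of the 12 arrays left out. There were 9 such alternatives, but the filter at the median level removed Plau, Serpinb2 and Plg, which have no value there. The total count of calls in each comparison stayed within 1.5 times. The number tested was not the same throughout: 7253 with the filter and 29214 over all probe sets, against 14506 otherwise. The share called therefore moved more than the count in those 2 alternatives. By direction, for Ang II 24 h against control, 2222 higher calls became 3559 with median centring, and 2136 lower calls became 3333 over all probe sets (29214 tested). The smaller differences moved. With the replicate block, Plg at 24 h against 6 h missed the threshold (0.22, limma adjusted p = 0.0527). Of 18 pairs of arrays with the same number in different groups, 3 had deviations correlated over 0.1 (median 0.03), so the numbers were not taken as pairs, and the block changed no other call of the 6 genes. Plg at 24 h against 6 h also missed it in the 2 groups alone (0.22, adjusted p = 0.0747), after quantile normalization (0.11, 0.26), over all probe sets (0.22, 0.0668) and with a trended robust variance (0.22, 0.0582), and was 0.13 to 0.29 with an array left out. Plau at 24 h against untreated cells passed in the 2 groups alone (-0.20, adjusted p = 0.0325) and after quantile normalization (-0.26, 0.014), and was -0.23 to -0.16 with an array left out. Serpine2 at 24 h against 12 h passed with the filter (0.20, adjusted p = 0.0275), quantile normalization (0.22, 0.0152), median centring (0.24, 0.0133) and a trended robust variance (0.20, 0.019), and was 0.14 to 0.27 with an array left out. With an array left out, Plaur at 24 h against 12 h was 0.17 to 0.23, Plg at 6 h against untreated cells was -0.21 to -0.058, and the F statistic of Plg was 1.4 to 5.16. The F test has no value in 2 groups alone. The causes were not tested. For the 12 named genes that are not among the 6, weak calls were lost under some alternatives: besides A2m and Serpina5, this held for Serping1 at 6 h, Plgrkt at 12 h and Pdgfc at 24 h.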
